A study of Mus musculus with 2 samples.

Results

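Vitamin A handling was described gene by gene in stromal cells of the healthy mouse gut, for 7 genes chosen by their role: Lrat (storage), Rbp4 (transport), Aldh1a1, Aldh1a2 and Aldh1a3 (synthesis of retinoic acid), Dhrs3 (return of retinal to retinol) and Cyp26b1 (breakdown of retinoic acid). They were 7 of the 18545 genes listed in either of 2 libraries, and all 7 were listed in both. The choice was made with earlier results of these data known. The data were droplet single-cell RNA counts with 1 control library from the colon and 1 from the small intestine, both untreated. Live cells without surface CD45 (immune) or CD326 (epithelial) had been sorted after 60 minutes of digestion for the colon and 45 minutes for the small intestine. The labels state neither genotype or strain nor the age, sex or number of mice, so what else separates the libraries is not known.

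Retinol circulates bound to a carrier protein and is stored in cells as retinyl ester. Retinol dehydrogenases turn it into retinal, retinaldehyde dehydrogenases turn retinal into retinoic acid, and retinoic acid acts through nuclear receptors that switch genes on and off. Cells limit the signal by reducing retinal back to retinol and by oxidising retinoic acid with CYP26 enzymes. In the gut, retinoic acid made by stromal cells and dendritic cells is known for shaping the homing and differentiation of immune cells.

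The colon library held 6018 cells with a median of 6598 UMIs per cell, where a UMI stands for 1 captured RNA molecule, and the small intestinal library held 9359 cells with a median of 5943. Cell types were the authors' labels: 3 fibroblast labels (CD81- FBs, CD81+ trophocytes and SEMFs), LECs, BECs and SMCs. Marker genes went with most labels. LECs led for all 6 lymphatic and SMCs for all 6 smooth muscle markers in both libraries. BECs led for 6 blood endothelial markers (colon) and 5 (small intestine) of 6, SEMFs for 6 and 5 of their 7, and trophocytes for 5 of their 7 in both. The CD81- FB list fitted less well, with 3 of 5 highest in that label in the colon and 1 of 5 in the small intestine, where the SMC label held more Adamdec1 (9211 CPM) than the CD81- FBs did (8191 CPM). Colon SMCs held 1242 CPM of Adamdec1, so the SMC labels of the libraries differed in it. The part of this difference in the SMC ratios was not tested. Epithelial markers summed to at most 10.5 CPM in any label, glial markers to 11.1 CPM and mesothelial markers to 19.6 CPM. Immune markers summed to 330 CPM in colon BECs, 83.5 CPM in colon LECs and at most 59.0 CPM elsewhere. Pericyte markers summed to 1365 CPM in small intestinal SEMFs, 1346 CPM in small intestinal SMCs, 919 CPM in small intestinal CD81- FBs and at most 675 CPM elsewhere, and their part in the tissue ratios of those labels was not tested. Markers of interstitial cells of Cajal were highest in SEMFs (166 CPM for the colon, 421 CPM for the small intestine). The libraries shared 21 cell barcodes. Y-linked but no Xist UMIs were found in 1751 colon cells and the reverse in 2700, while 6896 small intestinal cells had Y-linked UMIs and Xist was not listed there. Reported ratios of the 7 genes that moved by more than 1.5-fold when the colon was restricted to its Y-linked cells are given with that value. For ratios of other genes no such value is given, and whether they move was not examined.

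Levels are CPM, the UMIs of a gene per 1000000 UMIs of all genes in the cells of a label, with exact Poisson 95% intervals. Intervals on shares of cells are exact binomial (Clopper-Pearson). With 1 library per tissue there is no replicate and no test of a tissue difference, and every interval covers counting error alone. Labels next to each other in an order are called not separated where their intervals overlap. CPM of different genes were not compared with each other. Tissue ratios are given as measured, and the median gene with at least 100 UMIs in each library was itself at a log2 ratio of -0.19 in fibroblasts, -0.25 in CD81- FBs, -0.31 in SEMFs and -0.11 in LECs.

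The 7 genes fell into 2 broad patterns across the labels. Lrat, Rbp4 and the 3 Aldh1a genes were highest in fibroblast or SMC labels of both tissues, whereas Dhrs3 was highest in LECs of both and Cyp26b1 in endothelial labels of both. The pattern was less clear in the colon. There the leading labels of Lrat (at most 4.03 CPM) and Dhrs3 were not separated from the next. Colon Cyp26b1 was led by BECs from 16 UMIs in 53 cells, with LECs (4.69 CPM) not separated from trophocytes (11.3 CPM). By leading label, 2 of the 7 were led by LECs or BECs in each tissue, against 45.6% (colon) and 45.8% (small intestine) of the 6083 genes that reached 50 CPM in any label. For 3 of the 7 (Aldh1a1, Aldh1a3 and Dhrs3) both tissues had the same leading label, against 55.6% of those genes. Neither count was read as a result about the 7 genes.

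**Figure D1:**
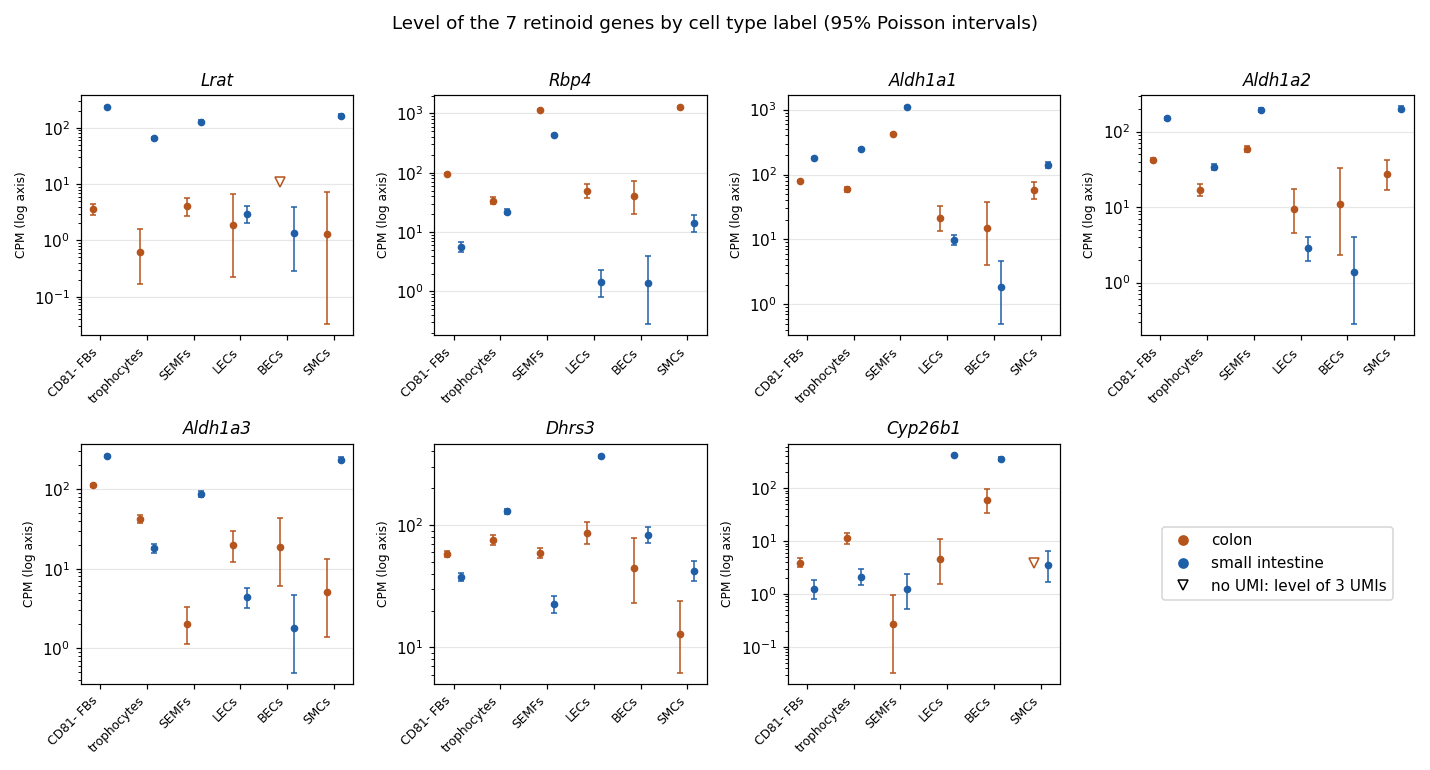
Level of each of the 7 genes in 6 cell type labels, in CPM on a log axis, for the colon (orange) and the small intestine (blue). Points are the level of the summed UMIs, bars are 95% Poisson intervals and open triangles mark labels with no UMI at the level of 3 UMIs. Lrat is at most 4.03 CPM in every colon label and at least 64.8 CPM in the fibroblast and SMC labels of the small intestine, and Cyp26b1 stands at 423 and 359 CPM in small intestinal LECs and BECs and at 59.3 CPM or less elsewhere.

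Lrat, which makes the retinyl esters that cells store, was found on chromosome 3 (chr3:82892579-82903973, minus strand, mm10). In the small intestine Lrat reached 239 CPM in CD81- FBs (232 to 246), 163 in SMCs (148 to 178), 129 in SEMFs (120.4 to 138) and 64.8 in trophocytes (60.8 to 69.0). Colon levels were 4.03 CPM in SEMFs (2.72 to 5.76), 3.56 in CD81- FBs (2.86 to 4.39) and 0.628 in trophocytes (0.171 to 1.61). The 4 small intestinal labels were all separated from one another, while in the colon no pair of neighbours in the order was. Farther apart in the colon order, CD81- FBs and SEMFs were both separated from trophocytes, by log2 ratios of 2.50 (1.10 to 4.41) and 2.68 (1.18 to 4.65), so trophocytes had the lowest Lrat level of the 3 fibroblast labels in both tissues.

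Cells with an Lrat UMI made up 56.6% of small intestinal CD81- FBs (1597 of 2823 cells, 54.7 to 58.4) and 1.82% of colon CD81- FBs (66 of 3631, 1.41 to 2.31). As a background, 0.520% of small intestinal LECs (0.277 to 0.888) and 0.922% of colon LECs (2 of 217, 0.112 to 3.29) had one, with medians of 4117.5 and 4545 UMIs per LEC against 6977 and 6697 per CD81- FB. The small intestinal share was far above its background, and the colon share was not separated from its own. After every cell was thinned to 1500 UMIs, the shares in CD81- FBs were 26.95% and 0.496%. Single cells weighed little in the small intestine, where the highest CD81- FB held 19 of 4814 UMIs, while 1 small intestinal LEC held 10 of the 33 UMIs of its label.

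Over all fibroblasts, Lrat had 122 UMIs (3.17 CPM) in the colon and 6629 UMIs (159 CPM) in the small intestine. The log2 ratio of colon to small intestine was -5.65 (-5.92 to -5.39). A log2 ratio of 1 is a 2-fold difference, and a negative ratio means a higher level in the small intestine. By label the ratio was -6.07 in CD81- FBs, -6.69 in trophocytes (4 colon UMIs), -5.00 in SEMFs and -6.97 in SMCs (1 colon UMI). The direction was the same in all 4 labels. With the Y-linked colon cells alone the ratio was -6.67 in fibroblasts, -7.57 in CD81- FBs, at most -5.50 in trophocytes (no colon UMI) and -5.62 in SMCs (1 colon UMI), and colon CD81- FBs with Xist UMIs held 6.19 CPM of Lrat against 1.26 CPM in those with Y-linked UMIs.

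Rbp4, the plasma carrier of retinol, lies on chromosome 19 (chr19:38116629-38125281, minus strand, mm10). Its colon level was 1257 CPM in SMCs (1179 to 1339), 1153 in SEMFs (1129 to 1178), 95.4 in CD81- FBs (91.5 to 99.3) and 33.6 in trophocytes (29.3 to 38.4). Its small intestinal level was 428 CPM in SEMFs (412 to 444), 22.2 in trophocytes (19.8 to 24.7), 14.3 in SMCs (10.2 to 19.4) and 5.66 in CD81- FBs (4.67 to 6.79). SEMFs thus held high levels in both tissues. The SMC label, which differed in Adamdec1 between the libraries, did so in the colon alone. The SMC level of the colon stood 1.09-fold above that of SEMFs, and the SEMF level of the small intestine 19.3-fold above that of trophocytes.

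Rbp4 was detected in 75.2% of colon SEMFs (831 of 1105 cells) and 51.8% of small intestinal SEMFs (574 of 1109), and in 81.6% of colon SMCs (102 of 125) against 4.27% of small intestinal SMCs (20 of 468). LECs, as a background, had 2.76% in the colon and 0.520% in the small intestine. Within SEMFs the UMIs were spread unevenly. The tenth of SEMFs with the most Rbp4 UMIs held 49.3% of them in the colon and 57.4% in the small intestine, and the highest single SEMF held 150 and 72 UMIs. Of the colon SMCs, 120 had a UMI of the smooth muscle actin gene Actg2, and these held 970 of the 971 Rbp4 UMIs of the label.

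**Figure D2:**
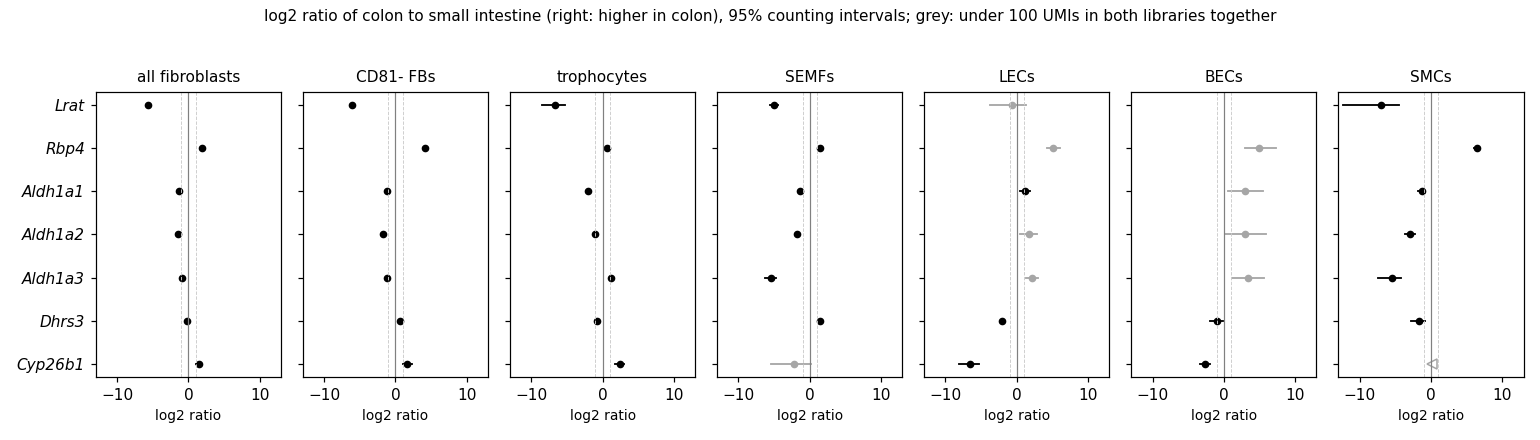
Log2 ratio of colon to small intestine for the 7 genes, in all fibroblasts and in each of 6 labels. Points are ratios of CPM, lines are 95% intervals for counting error, dashed lines mark a 2-fold difference, grey marks under 100 UMIs in both libraries together and the open triangle is an upper bound. Lrat lies between -6.69 and -5.00 in the fibroblast labels, and Rbp4 between 0.60 and 4.08.

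The log2 ratio of Rbp4 was 1.90 in all fibroblasts (1.84 to 1.96), from levels of 289 (colon) and 77.6 CPM (small intestine). It was 4.08 in CD81- FBs (3.80 to 4.36), 1.43 in SEMFs (1.37 to 1.49), 0.60 in trophocytes (0.35 to 0.85) and 6.46 in SMCs (6.01 to 6.96). The ratios thus ran from under 2-fold in trophocytes to well above it in SMCs and CD81- FBs. With the Y-linked colon cells alone the CD81- FB ratio was 3.34 and the trophocyte ratio turned to -0.18. Colon SEMFs with Xist UMIs held 1425 CPM of Rbp4 against 939 CPM in those with Y-linked UMIs. In LECs, 53 colon and 16 small intestinal UMIs gave 5.12, but 6 colon cells held all 53, 1 of them 20, and without the 6% of cells with the most UMIs the ratio was -0.25. With the Y-linked colon cells alone it was 5.82.

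Retinoic acid is made from retinal by 3 closely related enzymes. Their genes lie on chromosome 19 (Aldh1a1, chr19:20492715-20643465, plus strand), chromosome 9 (Aldh1a2, chr9:71215789-71296243, plus strand) and chromosome 7 (Aldh1a3, chr7:66390890-66427517, minus strand), all in mm10. Their coding sequences were 70.8% identical between Aldh1a1 and Aldh1a2, 69.4% between Aldh1a1 and Aldh1a3 and 69.7% between Aldh1a2 and Aldh1a3. The stretch around the catalytic cysteine shows how close they are, with its codon in capitals (57 bases of the coding strand, each within 1 exon: chr19:20630695-20630751, chr9:71283407-71283463 and chr7:66406073-66406129).
Aldh1a1: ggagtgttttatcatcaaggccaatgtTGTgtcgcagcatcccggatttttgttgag
Aldh1a2: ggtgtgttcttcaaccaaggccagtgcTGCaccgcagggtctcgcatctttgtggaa
Aldh1a3: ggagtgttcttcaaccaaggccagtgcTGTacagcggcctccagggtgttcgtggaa
Of these 57 bases Aldh1a2 and Aldh1a3 shared 45, and Aldh1a1 shared 39 with each. The kit reads the 3' ends of transcripts, and in the last 500 bases of 1 transcript per gene the longest run shared by any pair was 10 bases. Over the whole transcripts it was 26 bases, between Aldh1a2 and Aldh1a3. Where the counted reads fell was not examined.

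Aldh1a1 was highest in SEMFs of both tissues. Its level was 427 CPM in colon SEMFs (412 to 442) and 1117 in small intestinal SEMFs (1091 to 1143), which was 5.41-fold and 4.48-fold above the next label. Next in the colon came CD81- FBs (78.8 CPM), trophocytes (59.1) and SMCs (58.3), the last pair not separated. Next in the small intestine came trophocytes (249 CPM), CD81- FBs (182) and SMCs (141), all separated. An Aldh1a1 UMI was seen in 86.6% of colon SEMFs and 96.7% of small intestinal SEMFs, against 6.91% of colon LECs and 1.64% of small intestinal LECs, where 1 cell held 17 of the 110 UMIs.

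The log2 ratio of Aldh1a1 was -1.30 in all fibroblasts (-1.35 to -1.26), -2.08 in trophocytes (-2.23 to -1.92), -1.39 in SEMFs (-1.45 to -1.33), -1.28 in SMCs (-1.75 to -0.83) and -1.21 in CD81- FBs (-1.29 to -1.13). All 4 labels were higher in the small intestine, by more than 2-fold, and relative to the median gene the CD81- FB ratio was -0.96. In LECs the ratio went the other way, at 1.14 (0.42 to 1.80), from 23 colon and 110 small intestinal UMIs. The fibroblast transcript Adamdec1 was also higher in colon LECs (522 CPM) than in small intestinal LECs (108 CPM), and in colon BECs (1287 CPM) than in small intestinal BECs (86.2 CPM). Its part in the low endothelial levels of the Aldh1a genes and Rbp4 was not tested.

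Aldh1a2 was spread over more labels. Colon SEMFs held 59.2 CPM (53.8 to 65.0), CD81- FBs 42.3 (39.8 to 44.9), SMCs 27.2 (16.8 to 41.6) and trophocytes 16.96 (13.9 to 20.5). The small intestinal level was 202 CPM in SMCs (186 to 219), 195 in SEMFs (185 to 206), 149.6 in CD81- FBs (144 to 155) and 34.1 in trophocytes (31.2 to 37.2). SMCs and SEMFs of the small intestine were not separated, and trophocytes had the lowest level among the fibroblasts of both tissues. The log2 ratio was -1.48 in all fibroblasts (-1.56 to -1.39), -1.82 in CD81- FBs, -1.72 in SEMFs, -1.01 in trophocytes and -2.89 in SMCs, each on the side of the small intestine. In LECs it lay on the side of the colon, at 1.72 (0.53 to 2.78) from 10 colon and 32 small intestinal UMIs, and at 0.49 with the Y-linked colon cells alone (1 colon UMI). An Aldh1a2 UMI was seen in 19.7% of colon and 57.7% of small intestinal CD81- FBs, against 3.23% and 1.00% of LECs.

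Aldh1a3 was highest in CD81- FBs of both tissues, and SEMFs and SMCs had the ratios farthest from 0. It was at 110.8 CPM in colon CD81- FBs (107 to 115) and 263 in small intestinal CD81- FBs (256 to 270). SEMFs held 2.02 CPM in the colon (15 UMIs, 1.13 to 3.33) and 86.3 in the small intestine (563 UMIs, 79.3 to 93.7), which made the log2 ratio -5.42 (-6.27 to -4.68). Colon SEMFs were thus lowest for Aldh1a3, not separated from SMCs, while being the highest colon label for Aldh1a1 and Aldh1a2. The share of SEMFs with a UMI was 1.27% in the colon, below the 4.61% of colon LECs, and 21.6% in the small intestine, against 1.16% of LECs there. Of the small intestinal SEMF UMIs, 73.0% lay in the tenth of the cells with the most.

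Trophocytes stood on the other side for Aldh1a3. They held 42.1 CPM in the colon (37.2 to 47.4) and 18.0 in the small intestine (15.9 to 20.3), and their log2 ratio was 1.22 (0.97 to 1.47), while CD81- FBs had -1.25 (-1.31 to -1.18) and SMCs -5.49 (-7.37 to -4.13). With the Y-linked colon cells alone the SMC ratio was -4.14, from the same 4 colon UMIs. In LECs, 21 colon and 49 small intestinal UMIs gave 2.17 (1.36 to 2.94), and -0.12 with the Y-linked colon cells alone (1 colon UMI). In all fibroblasts together these combined to -0.91 (-0.97 to -0.84), short of 2-fold, and giving the 3 labels equal weight moved it to -1.24. Whether the ratios differ between labels was not tested. In the small intestinal SMC label, 351 cells had an Actg2 UMI and held 217 CPM of Aldh1a3, 126 of Lrat and 8780.4 of Adamdec1, and 117 cells without one held 285, 283 and 10623 CPM. Lrat and Aldh1a3 were thus higher where the fibroblast transcript was higher. The order was the other way for Aldh1a1 (144 CPM with and 131 without an Actg2 UMI), Aldh1a2 (206 and 190) and Dhrs3 (45.1 and 33.5), with overlapping intervals. The part of the fibroblast transcript in these levels was not tested.

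Cells that carried any Aldh1a UMI made up 69.1% of colon fibroblasts (67.9 to 70.4) and 89.7% of small intestinal fibroblasts (88.9 to 90.4), and 98.6% of small intestinal SEMFs. All 3 genes were found together in 1.76% of colon and 16.7% of small intestinal fibroblasts. In small intestinal CD81- FBs, 34.8% of the cells held both Lrat and Aldh1a2, where independent detection at the measured shares would give 32.7%, and 41.1% held both Aldh1a2 and Aldh1a3, against 39.3%. Detection of one gene therefore went with little more detection of the other within that label. Rbp4 and Aldh1a1 were found together in 67.7% of colon SEMFs, with 65.1% by independent detection.

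Dhrs3, the enzyme that reduces retinal to retinol, lies on chromosome 4 (chr4:144892827-144928209, plus strand), and Cyp26b1, which oxidises retinoic acid, on chromosome 6 (chr6:84571414-84593908, minus strand), both in mm10. Both genes are known targets of retinoic acid in other tissues, and both were highest in endothelial labels of the small intestine, so the bases just before their annotated starts are shown. They are the coding-strand sequence from RefSeq (GRCm38.p6, the build of mm10), 250 bases for Dhrs3 (chr4:144892577-144892826) and 152 for Cyp26b1 (chr6:84593909-84594060).
Dhrs3: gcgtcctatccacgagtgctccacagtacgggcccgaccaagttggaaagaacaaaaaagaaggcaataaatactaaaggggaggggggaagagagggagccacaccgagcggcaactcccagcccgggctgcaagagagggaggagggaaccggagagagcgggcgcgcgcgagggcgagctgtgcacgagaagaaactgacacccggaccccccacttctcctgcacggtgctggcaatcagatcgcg
Cyp26b1: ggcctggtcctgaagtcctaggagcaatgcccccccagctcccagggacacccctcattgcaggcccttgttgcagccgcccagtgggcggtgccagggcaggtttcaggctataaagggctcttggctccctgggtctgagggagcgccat
They were searched on both strands for 2 copies, in the same direction, of the half-site AGGTCA (or the variant AGTTCA, the variant GGGTCA or the variant GGTTCA) with 1, 2 or 5 bases between them, the arrangement that retinoic acid receptors are known to bind. No match was found in these letters, nor in any of the 10 windows of 300 bases (250 before and 50 after a start) of the 6 genes with a RefSeq window, which leaves Aldh1a3 out. Among all 32851 windows, 0.222% held a match with 1 base between, 0.268% with 2 and 0.0974% with 5. A match was thus rare in windows of this length.

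Dhrs3 was highest in LECs of both tissues. It was at 86.4 CPM in colon LECs (69.6 to 106) and 364 in small intestinal LECs (353 to 376). Colon trophocytes followed at 75.5 CPM (68.9 to 82.6), not separated from LECs, and SEMFs, CD81- FBs and BECs lay between 44.5 and 59.0 CPM, not separated from one another. Colon SMCs were lowest at 12.9 CPM (6.21 to 23.8), separated from every label but BECs. Small intestinal trophocytes followed at 129.5 CPM (124 to 135), 2.81-fold below LECs, then BECs at 82.6, SMCs at 42.4, CD81- FBs at 37.6 and SEMFs at 22.5. LECs thus stood clear of every other label in the small intestine and not in the colon.

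A Dhrs3 UMI was seen in 74.0% of small intestinal LECs (1849 of 2498 cells) and 30.9% of colon LECs (67 of 217), and in 10.7% of small intestinal SEMFs, the lowest share in that library. After thinning to 1500 UMIs the shares in LECs were 41.3% and 12.4%. The log2 ratio was -2.08 in LECs (-2.39 to -1.78), -1.71 in SMCs (10 colon UMIs), -0.89 in BECs (12 colon UMIs) and -0.78 in trophocytes (-0.93 to -0.63). It was 0.62 in CD81- FBs (0.49 to 0.75) and 1.39 in SEMFs (1.12 to 1.67), both on the side of the colon. In all fibroblasts the value of -0.17 (-0.25 to -0.09) was close to that of the median gene and became 0.020 relative to it, as it did with equal weight for the 3 labels.

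Dhrs3 also differed within the colon library. In CD81- FBs, cells with Xist UMIs held 82.0 CPM (76.9 to 87.4) and cells with Y-linked UMIs 30.7 CPM (26.7 to 35.0). The same order was seen in trophocytes (104 against 46.3 CPM) and in SEMFs (79.7 against 31.3 CPM), while in LECs the values were 90.95 and 84.5 CPM. The gap was thus present in the 3 fibroblast labels, where the intervals did not overlap, and not detectable in LECs. With the Y-linked colon cells alone the tissue ratio was -0.29 in CD81- FBs, 0.47 in SEMFs, -1.48 in trophocytes and -1.02 in all fibroblasts, so the CD81- FB ratio changed side and the SEMF ratio stayed on the side of the colon. Animal, handling and sex cannot be told apart here.

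Cyp26b1 was an endothelial transcript of the small intestine. There it was at 423 CPM in LECs (411 to 435) and 359 in BECs (334 to 385), 1.18-fold apart, and between 1.23 and 3.56 CPM in the other 4 labels. Its colon level was 59.3 CPM in BECs (33.9 to 96.4), 11.3 in trophocytes (8.85 to 14.2), 4.69 in LECs (1.52 to 10.95) and 3.93 in CD81- FBs (3.18 to 4.79). No Cyp26b1 UMI was found in 125 colon SMCs, where the interval for a count of 0 reaches up to 4.78 CPM. Both endothelial labels thus held the gene in the small intestine. BECs had the highest level in the colon, from few cells and UMIs.

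A Cyp26b1 UMI was seen in 66.1% of small intestinal LECs (1651 of 2498 cells) and 54.4% of BECs (285 of 524), against 0.804% of small intestinal fibroblasts. Colon cells with one were 2 of 217 LECs (0.922%, 0.112 to 3.29), 8 of 53 BECs (15.1%, 6.75 to 27.6), 51 of 875 trophocytes (5.83%, 4.37 to 7.59) and 1 of 1105 SEMFs. All 16 UMIs of colon BECs came from the 45 cells labelled CapECs, 6 of them from 1 cell. Of those 16 UMIs, 14 lay in 22 cells with Xist UMIs and 1 in 11 cells with Y-linked UMIs. Thinned to 1500 UMIs, 42.6% of small intestinal LECs and 0.922% of colon LECs had a UMI. The thinned share was 1.89% in colon BECs (0.048 to 10.1) and 1.26% in colon trophocytes (0.63 to 2.24). Lymphatic markers summed to 1265 CPM in small intestinal BECs, against 20691 CPM in LECs of that library and 29.7 CPM in colon BECs. The part of lymphatic transcripts in the Cyp26b1 level of small intestinal BECs was not tested.

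The log2 ratio of Cyp26b1 was -6.49 in LECs (-8.12 to -5.27), from 5 colon and 4738 small intestinal UMIs, and -2.60 in BECs (-3.41 to -1.89), from 16 and 787. In LECs 1 colon cell held 4 of the 5 UMIs, and without the highest cell of each library the ratio was -8.81. In fibroblasts the gene was on the side of the colon at a low level, with a ratio of 2.41 in trophocytes (1.79 to 3.06) and 1.66 in CD81- FBs (1.02 to 2.36), from 72 and 97 colon UMIs. With the Y-linked colon cells alone the ratio was -4.35 in BECs (1 colon UMI), at most -5.13 in LECs (no colon UMI) and 0.85 in CD81- FBs. Of the small intestinal LECs, 51.5% held both Dhrs3 and Cyp26b1 (1286 of 2498 cells, 49.5 to 53.5), where independent detection would give 48.9%.

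The labels that held the UMIs of each gene are shown as shares of the whole library in the plot of UMI shares. Small intestinal LECs gave 84.2% of the Cyp26b1 UMIs and BECs 13.98%, and LECs gave 56.2% of the Dhrs3 UMIs, while LECs held 19.3% of all UMIs. Fibroblasts gave between 88.7% and 98.1% of the UMIs of the other 5 genes there. In the colon, fibroblasts gave 89.1% of the Cyp26b1 and 95.3% of the Dhrs3 UMIs, with 94.7% of all UMIs. SEMFs gave 70.3% of the colon and 84.6% of the small intestinal Rbp4 UMIs and CD81- FBs 89.7% and 77.4% of those of Aldh1a3. These shares depend on how many cells of each label were captured, which differed between the libraries (217 and 2498 LECs, 53 and 524 BECs).

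**Figure D3:**
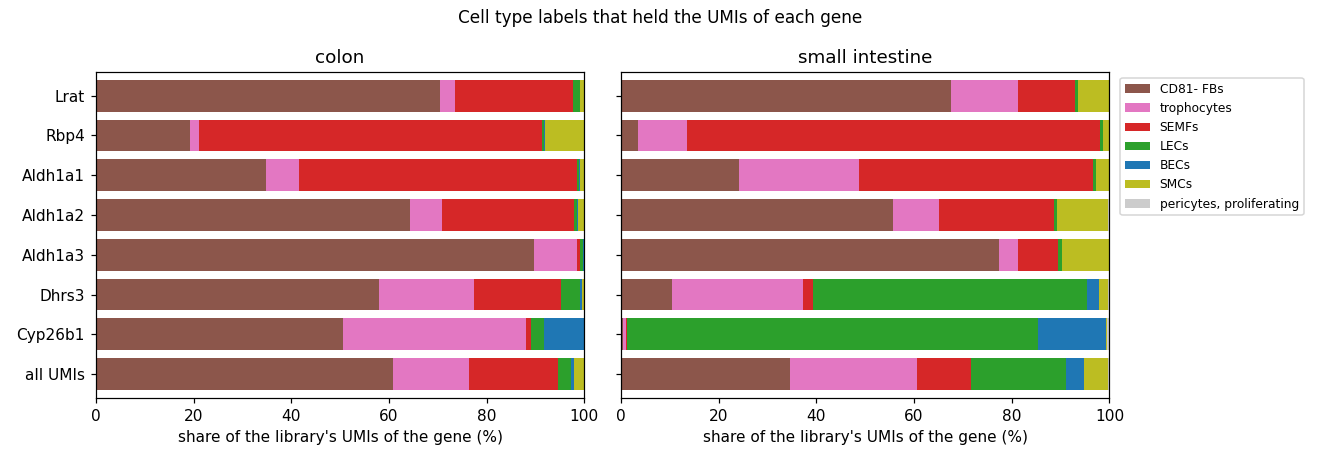
Share of each gene's UMIs that came from each cell type label, in percent of the library's UMIs of that gene, for the colon (left) and the small intestine (right), with the share of all UMIs in the lowest bar. LECs hold 84.2% of the small intestinal Cyp26b1 UMIs, and in both tissues SEMFs hold most of the Rbp4 UMIs.

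Counted over all fibroblasts with a limit of 2-fold, 2 of the 7 genes (Rbp4 and Cyp26b1) were higher in the colon, as were 6.88% of the 13307 genes with at least 100 UMIs over both. Higher in the small intestine were 3 (Lrat, Aldh1a1 and Aldh1a2), as were 9.47% of all genes. Dhrs3 and Aldh1a3 were within 2-fold. The median log2 ratio of the 7 genes was -0.91 and that of all genes tested -0.17. Under the Y-linked restriction 2 and 4 genes passed the limit.

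By label, the counts of higher genes in the colon and in the small intestine were as follows. In CD81- FBs they were 2 and 4 of 7, against 6.46% and 10.4% of all genes, and in trophocytes 2 and 3 of 7, against 4.23% and 8.24%. In SEMFs, where 6 genes had 100 UMIs, they were 2 and 4, against 5.36% and 15.1%. SMCs had 1 and 5 of 6, against 3.37% and 17.3%. Fewer of the 7 genes had 100 UMIs in endothelial labels, with 1 and 2 of 3 genes in LECs (3.45% and 15.4% of all genes) and 0 and 1 of 2 in BECs (3.1% and 19.6%). The limit of 100 UMIs was over both libraries, so a gene could pass it through the tissue where it was high. In SMCs, Lrat passed with 1 colon and 457 small intestinal UMIs, and in LECs Cyp26b1 passed with 5 and 4738. A ratio past 2-fold was then partly built in. The 7 genes were chosen with earlier results of these data known. These counts and those over all fibroblasts were therefore not read as a result about them.

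Other genes of the pathway gave the setting. Of 38 further retinoid genes, 28 were listed in both libraries, 7 in neither and 3 (Stra6, Rdh16 and Cyp26a1) in the small intestine alone. In all fibroblasts 23 had at least 100 UMIs, and 4 of them were higher in the colon by 2-fold or more, 3 in the small intestine and 16 in neither, with a median log2 ratio of 0.24. Of all genes tested in fibroblasts, 6.88% were higher in the colon and 9.47% in the small intestine, with a median of -0.17. These counts were not read as a result about the further genes. The receptor of the carrier protein, Stra6, had 37 UMIs in small intestinal LECs (3.30 CPM) and 1 UMI each in CD81- FBs and BECs among the other compared labels. Cyp26a1, a relative of Cyp26b1, had 5 UMIs in small intestinal LECs and 2 in BECs, so Cyp26b1 was the CYP26 gene that was measurable in these cells.

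Rdh10, which makes the retinal used by the Aldh1a enzymes, was highest in SEMFs of both tissues, at 148 CPM in the colon and 316 in the small intestine (log2 ratio -1.09, -1.20 to -0.99). CD81- FBs followed at 84.0 and 184 CPM. Adh1, an alcohol dehydrogenase that acts on retinol, was at 68.9 and 105.7 CPM in trophocytes, at 64.4 and 56.1 CPM in CD81- FBs and at 1.48 and 2.91 CPM in SEMFs. Its levels in trophocytes and CD81- FBs were separated in the small intestine but not in the colon. SEMFs thus had the highest Rdh10 level and the lowest Adh1 level of the 3 fibroblast labels in both tissues. In BECs, Rbp7, a binding protein of capillary endothelium, was at 352 CPM in the colon and 38.8 in the small intestine, and in LECs at 162 and 52.3 CPM.

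**Figure D4:**
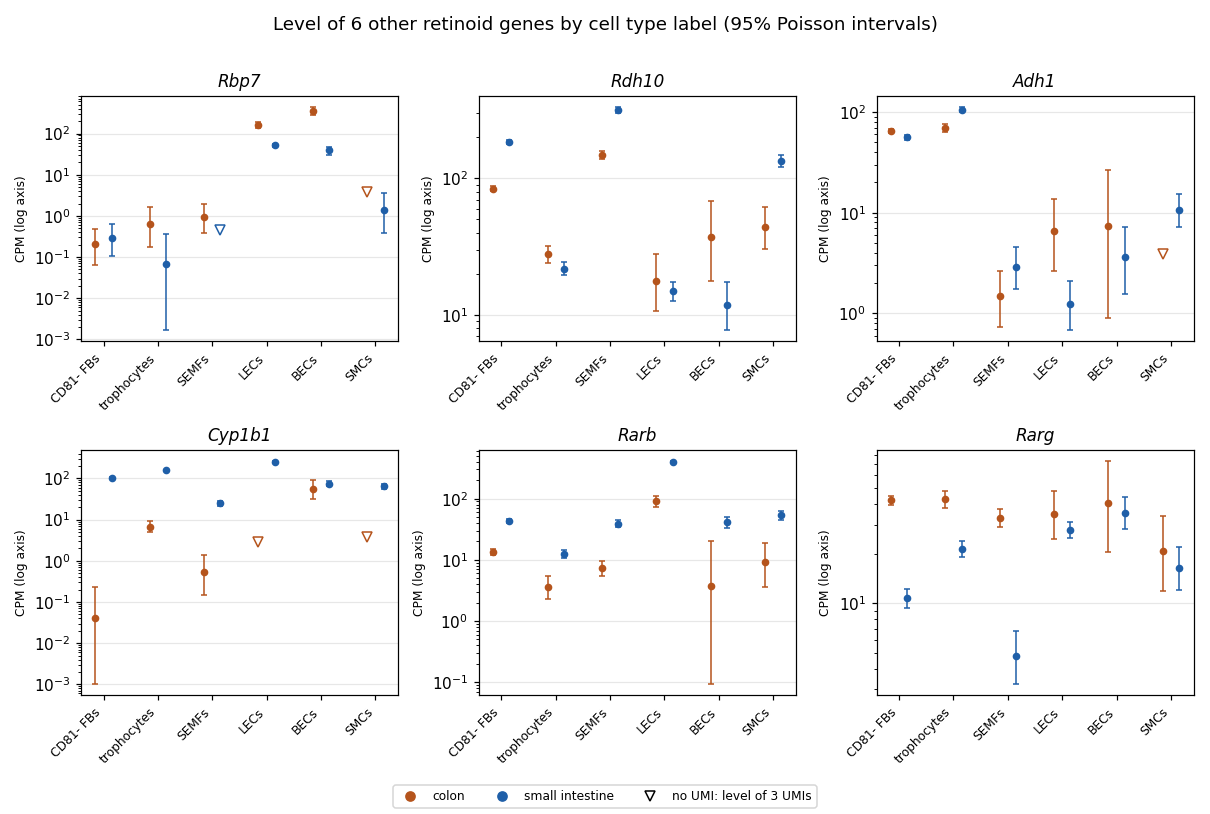
Level of 6 other retinoid genes in 6 cell type labels, in CPM on a log axis, for the colon (orange) and the small intestine (blue), with 95% Poisson intervals and open triangles for no UMI. Rdh10 is highest in SEMFs and Rarb in LECs of both tissues, and Rbp7 is highest in BECs of the colon and in LECs of the small intestine.

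Among the receptors, Rarb was highest in LECs, at 90.1 CPM in the colon and 398 in the small intestine (log2 ratio -2.14, -2.45 to -1.85). In all fibroblasts it was at 10.6 and 31.4 CPM (-1.57, -1.73 to -1.41), while Rarg was at 40.5 and 13.7 CPM (1.57, 1.43 to 1.71). The 2 receptors thus went in opposite directions in fibroblasts. Cyp1b1, which can oxidise retinoids among many other substrates, had no UMI in colon LECs and 2838 UMIs (253 CPM) in small intestinal LECs, with the ratio at most -6.49 on the log2 scale, and 1.25 against 111 CPM in fibroblasts. In LECs, 18 of the other retinoid genes had at least 100 UMIs. Of these, 4 (Rarb and Cyp1b1 among them) were higher in the small intestine by 2-fold or more, 1 in the colon and 13 in neither. Of all genes tested in LECs, 15.4% were higher in the small intestine and 3.45% in the colon, and the limit of 100 UMIs was again over both libraries. A shared cause was not tested. Rarb is a textbook target of retinoic acid, and of the 31 other retinoid genes with a RefSeq window only it and Cyp26a1 held a match with 5 bases between the half-sites, and Bco1 held one with 1 base between. The match of Rarb lies 53 to 37 bases before a start of the gene and is shown in capitals with 6 bases on each side (chr14:16575507-16575535, minus strand, RefSeq GRCm38.p6).
Rarb: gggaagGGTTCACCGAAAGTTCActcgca
This letter match is a description of the window and was not measured as binding here.

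Patterns across labels were set side by side as a description, by Pearson's r of log2(CPM + 10) over 12 profiles (6 labels in 2 libraries), which share their libraries and therefore depth and handling. Among the 7 genes, Aldh1a2 was most like Aldh1a1 (r = 0.85) and Lrat (0.84), and Dhrs3 was most like Cyp26b1 (0.62), while Cyp26b1 had an r of -0.75 with Aldh1a1. Over 6083 genes, Pdxdc1 and Hpse2 were among the 3 closest to Lrat, both with r = 0.93. Those closest to Aldh1a1 were Fam110b (0.97), Sobp and Ror2 (both 0.96), and those closest to Aldh1a2 were Zfp618 (0.97), Gm19610 and Aff3 (both 0.96). Aldh1a3 was closest to Ccl11 (0.92), Lama1 (0.91) and Vstm4 (0.88), and Rbp4 to Rgs10 (0.93), Ube2m (0.90) and Slc25a4 (0.89). Cyp26b1 was closest to Mdm2 (0.96), Ppm1h and Eva1c (both 0.95), and Dhrs3 to Plce1 (0.89), Arhgef10 and Mir99ahg (both 0.86). High values of r are common over so few profiles and were not tested.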

How the data were processed

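Stromal cells of 1 colon and 1 small intestinal library were analysed, grouped by the tissue in the labels. Per the submitters' processing notes, Cell Ranger 7.1.0, Seurat 4 and the mm10 build were used; filters on cells and genes and the treatment of doublets are not given in the sources used here. The protocols in the labels give a load of about 16000 cells each on the 3' kit version 3.1. The authors deposited raw UMI counts per gene and cell, natural log values and a label per cell. The counts were used for all results. For the 7 genes, the natural log values deposited by the authors were found to be ln(1 + 10000 times the gene's share of the cell's UMIs), and they were not used further.

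Here, UMIs were summed per label and library (40684070 in the colon, 58134526 in the small intestine) and given as CPM. CapECs, ArtECs and VenECs of the colon were pooled as BECs, and labels with at least 50 cells in both libraries were compared. Tissue ratios carry exact conditional binomial 95% intervals, and a count of 0 was set to 3 UMIs to give a bound. The interval code was tested on simulated counts. Counts of genes past 2-fold used genes that reached 100 UMIs over the 2 libraries. Other retinoid genes were named where they reached 50 CPM in a label or were listed in 1 library, and like genes by the 3 highest correlations. A few genes that met these rules are not reported here. The members and lists were chosen with earlier results of these data known. Positions are from GENCODE and sequences from GENCODE transcripts or RefSeq. Of the alternatives, 11 were tried, 1 of them (leaving out the SMC label) added after seeing the data. Python 3.11.15, numpy 2.4.6, scipy 1.17.1, pandas 2.3.3 and biopython 1.88 were used.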

Additional observations from a re-analysis of the deposited data

Results flagged for a closer look

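Listed here are those of the 7 genes with ratios beyond 2-fold in opposite directions in different labels. Only ratios from at least 100 UMIs over the 2 libraries were taken, and their counting intervals lay on opposite sides of 0. How many of all genes do the same was not counted, so the number listed was not read as a result. With 1 library per tissue the differences between labels were not tested. For Aldh1a1 the log2 ratio of colon to small intestine was 1.14 in LECs (23 colon UMIs, 0.42 to 1.80), and -1.21 in CD81- FBs, -2.08 in trophocytes, -1.39 in SEMFs and -1.28 in SMCs. Colon LECs also held more of the fibroblast transcript Adamdec1 (522 against 108 CPM), and its part was not tested. Relative to the median gene the CD81- FB value of Aldh1a1 was -0.96. Aldh1a3 was at 1.22 in trophocytes, and at -1.25 in CD81- FBs, -5.42 in SEMFs and -5.49 in SMCs (4 colon UMIs). Its CD81- FB value was -0.95 with the Y-linked colon cells alone, short of 2-fold. Dhrs3 was at 1.39 in SEMFs, and at -2.08 in LECs and -1.71 in SMCs (10 colon UMIs), and with the Y-linked colon cells alone the SEMF value was 0.47. Cyp26b1 was at 1.66 in CD81- FBs and 2.41 in trophocytes, and at -6.49 in LECs (5 colon UMIs) and -2.60 in BECs (16 colon UMIs). With the Y-linked colon cells alone its CD81- FB value was 0.85.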

How the results depend on the processing

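The counts of genes past 2-fold in fibroblasts stayed within 1.5 times of those reported under every alternative run on them, at 2 in the colon and between 3 and 4 in the small intestine. The count of genes with the same leading label was 3 under the alternatives planned for it and 5 without the SMC label. Of 341 log2 ratios under an alternative, 282 moved by less than their counting interval, 53 moved further and 6 changed sign. Those 6 were Rbp4 in LECs at -0.25 without the 6% of cells with the most UMIs, Dhrs3 in fibroblasts at 0.020 relative to the median gene and at 0.020 with equal weight for the fibroblast labels, and, with the Y-linked colon cells alone, Rbp4 in trophocytes at -0.18, Aldh1a3 in LECs at -0.12 and Dhrs3 in CD81- FBs at -0.29. The cause was not tested. Shares of positive cells depend on depth, and thinning to 1500 UMIs moved 82 of 98. The median UMIs per cell were lowest in small intestinal BECs (3651.5) and colon BECs (3821). Total UMIs of a compared label were lowest in colon BECs (269665 UMIs), SMCs (772279 UMIs) and LECs (1065387 UMIs). No paired analysis was possible because each tissue had 1 library.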

Other observations

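Within SEMFs, cells rich in Rbp4 were set beside cells without it, a split chosen after its values were seen and given as a description. In the colon, 444 SEMFs with 5 or more Rbp4 UMIs held 95.1 CPM of Aldh1a2 (84.8 to 106) and 1787 CPM of the smooth muscle gene Tagln, against 13.4 CPM (8.61 to 20.0) and 455 CPM in the 274 SEMFs without an Rbp4 UMI. The growth factor gene Fgf7 went the other way, at 9.64 CPM (6.55 to 13.7) in the first and 153 CPM (135 to 172) in the second. Aldh1a1 was at 479.6 and 312 CPM, Rdh10 at 163 and 136 CPM and the binding protein gene Igfbp5 at 303 and 89.0 CPM. In the small intestine, 192 SEMFs with 5 or more Rbp4 UMIs held 272 CPM of Aldh1a2 (243 to 303) and 107 CPM of Igfbp5, against 161 CPM (147 to 176) and 1873 CPM in the 535 SEMFs without. There Aldh1a1 was at 1017 and 1144 CPM, Rdh10 at 315 and 305 CPM and Tagln at 3212 and 2425 CPM, while Fgf7 had 1 and 3 UMIs. Aldh1a2 and Tagln were thus higher in the SEMFs rich in Rbp4 of both tissues, whereas Aldh1a1 and Igfbp5 went opposite ways in the 2 tissues. The median UMIs per cell were 6922.5 and 6223.5 in the colon and 5884.5 and 5291 in the small intestine. The epithelial genes Reg3b and Fabp6 were at 80.5 and 66.1 CPM in the small intestinal cells rich in Rbp4, but 1 cell held all 78 Fabp6 UMIs.

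In labels with too few cells to compare, 24 small intestinal cells labelled proliferating held 29 Dhrs3 and 28 Cyp26b1 UMIs, and 8 colon pericytes held 10 Rbp4 UMIs and none of Lrat, Aldh1a2, Aldh1a3 or Cyp26b1.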
